A study of Mus musculus with 17 samples.

Results

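The genes described here are the nuclear-encoded subunits of the mitochondrial respiratory chain, measured as RNA in mouse blood progenitors of 6 genotypes. Members were chosen by symbol alone: protein-coding genes named Ndufa, Ndufb, Ndufc, Ndufs or Ndufv with a digit, Sdha to Sdhd, and symbols that start with Uqcr, Cox4i, Cox5, Cox6, Cox7, Cox8 or Atp5. This gave 84 of the 47643 Ensembl gene rows in the count table, of which 21620 were protein-coding. By symbol, 37 members belong to complex I, 4 to complex II, 8 to complex III, 18 to complex IV and 17 to complex V. Ndufa4 stands with complex I by its name but works in complex IV, and Atp5s is not a core subunit of ATP synthase. Cyc1 and Ndufab1, which are true subunits, fall outside the symbol rule.

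The respiratory chain burns reducing power from nutrients to pump protons across the inner mitochondrial membrane. Complex I (NADH dehydrogenase) and complex II (succinate dehydrogenase) feed electrons to complex III (cytochrome bc1) and on to complex IV (cytochrome c oxidase), and complex V (ATP synthase) makes ATP from the proton gradient. Most subunits are encoded in the nucleus and join a few catalytic subunits encoded by mitochondrial DNA. In blood formation, resting stem cells are known for low respiration, and progenitors and many acute myeloid leukaemias for a greater dependence on it.

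RNA came from bone marrow cells sorted as cKit+ Lymph- Ery-, that is, with the receptor cKit of stem and progenitor cells and without markers of the lymphoid or red cell line. The compound mutants were URE het Tet2 KO (3 libraries) and URE het Tet2 het (2 libraries), all labelled acute myeloid leukaemia (AML). The others were Tet2 KO, Tet2 het, URE het and WT (3 libraries each), all labelled Normal. URE het stands for loss of 1 copy of an upstream enhancer of Spi1, which encodes the transcription factor PU.1; Tet2 het and Tet2 KO lack 1 or both copies of Tet2, a DNA demethylase. The controls were described as age-matched, and no age, sex, batch or promoter of a Cre was given per library. All AML libraries and no others carried both lesions, so disease state and compound genotype cannot be told apart. Nothing in the labels says that libraries came from separate mice, so p-values measure the spread between these libraries, which may be technical. The titles number the libraries 1 to 17. Numbers 8 to 17 cover 7 Normal and 3 AML libraries, numbers 1 to 7 cover 5 Normal and 2 AML libraries, and each genotype has libraries in both ranges. The labels do not say what the numbers stand for.

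Gene counts came to 21.1 to 38.3 M per library, and the 84 members together took 0.332% to 0.481% of them. Spi1 stood at 7.83, 12.3 and 98.6 CPM (counts per M counts of the library) in the URE het Tet2 KO libraries, from low to high, and at 21.6 and 34.9 CPM in URE het Tet2 het, against 45.3 to 137 CPM over the Normal genotypes. All compound mutants but 1 thus lay below every Normal library, and that 1 lay among them. Tet2 RNA stood at 80.2 to 86.3 CPM in Tet2 KO against 108 to 133 CPM in WT, but at 112 to 176 CPM in URE het Tet2 KO, so the gene-level count does not mark the KO allele; the part of the gene deleted was not given. Progenitor genes (Kit, Cd34, Flt3, Ptprc, Spi1, Myb, Gata2, Mpo) were detected in every library except Gata2, at 0 in 1 AML library, while the summed level of 9 erythroid genes did not exceed 62.2 CPM in any library. The 2 mitochondrial ribosomal RNAs took 24.6% to 41.1% of gene counts. Their share was 31.7% to 37.9% in Normal libraries 8 to 17, against 24.6% to 28.8% in Normal libraries 1 to 7. They entered the library totals, and a fit without mitochondrial genes is given with the alternatives.

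All 5 complexes were well expressed. Per kilobase of merged exon sequence, the highest member of complex I was Ndufa1, an accessory subunit, at a mean of 57.6 CPM per kb over the 17 libraries. In complex II it was the membrane anchor Sdhd with 60.4 CPM per kb, and in complex III the small subunit Uqcr10 with 60 CPM per kb. Cox6a1, a regulatory subunit of cytochrome c oxidase, reached 116 CPM per kb, and Atp5b, the catalytic beta subunit of ATP synthase, had the highest value of all members, 136 CPM per kb. Median levels were 14.5 CPM per kb in complex I, 19.5 in complex II, 24.4 in complex III, 45.4 in complex IV and 27.3 in complex V. The 5 members that did not pass the filter on low counts were all isoforms known from particular tissues or from hypoxia. Cox8c, a testis form, had 0 counts in all 17 libraries, which allows up to 0.0637 to 0.149 CPM per library (3 counts). Cox7b2 had 4 counts in all, Ndufa4l2 15, Cox4i2 29 and Cox8b 60. The other 79 members were tested.

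The mean log2 level of the 79 tested members was highest in URE het Tet2 KO and lowest in URE het Tet2 het. On the scale log2(CPM + 0.5) it was 5.28 ± 0.25 in URE het Tet2 KO (SD, n = 3) and 4.63 ± 0.03 in URE het Tet2 het (n = 2). It was 5.08 ± 0.20 in Tet2 KO, 4.93 ± 0.16 in Tet2 het, 5.15 ± 0.29 in URE het and 4.98 ± 0.17 in WT (n = 3 each). Both URE het Tet2 het libraries, at 4.65 and 4.62, lay below all 12 Normal libraries, whose lowest was 4.74. The other 5 genotypes overlapped one another. In every Normal genotype the libraries titled 8 to 17 lay above those titled 1 to 7, and this held in URE het Tet2 KO too, but not in URE het Tet2 het.

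**Figure D1:**
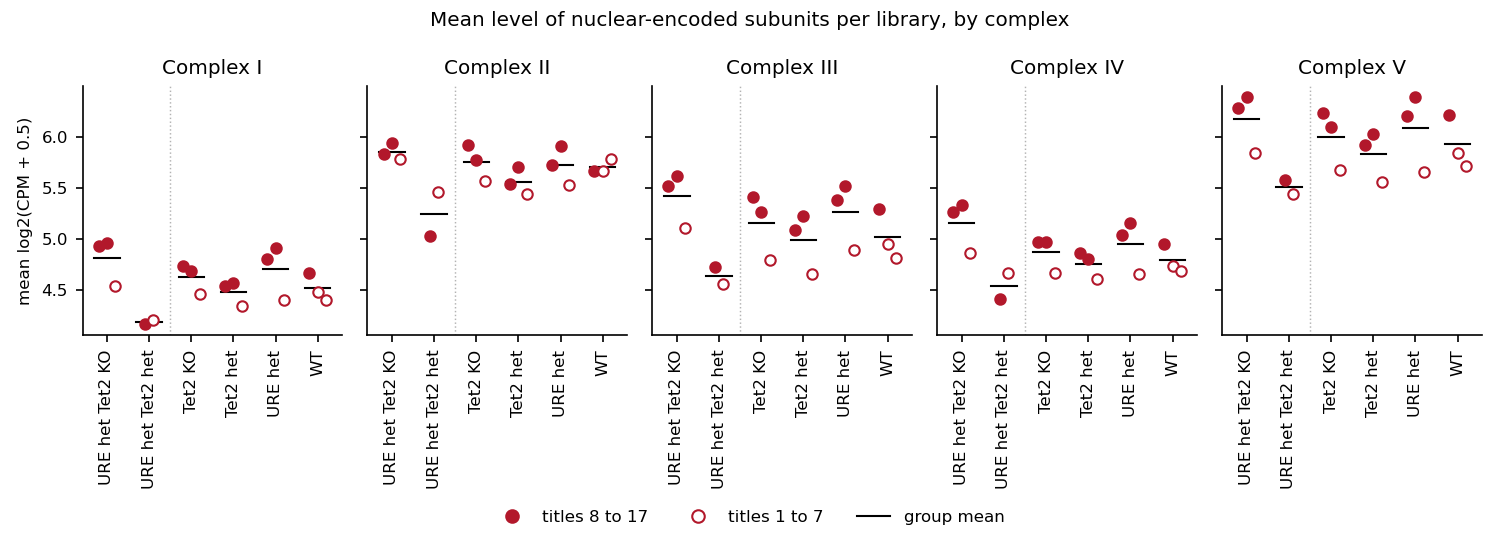
Mean log2(CPM + 0.5) of the tested subunits of each complex (y axis) in each of the 17 libraries, by genotype (x axis). Filled points are libraries titled 8 to 17, open points those titled 1 to 7, bars are genotype means, and the dotted line separates AML from Normal. In complexes I, III, IV and V every filled Normal point lies above every open one, while in complex II they overlap. Only in complex I do both URE het Tet2 het libraries lie below all Normal points.

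The first comparison asked which subunits differ between the AML and the Normal libraries. Of 79 members tested, 1 was higher and 2 were lower in AML (edgeR quasi-likelihood test, adjusted p under 0.05 over 19951 genes). Over all genes tested, 11% were called, 6.94% higher and 4.02% lower. All 3 members belong to complex IV: Cox6b2 rose, and Cox5a and Cox6a2 fell. The median log2 fold of the 79 members was -0.09, beside 0.05 over all genes, and 29 members had a positive log2 fold, beside 54.2% of all genes. No member of complex I, II, III or V passed, and 8 of the 79 had an unadjusted p under 0.05 (10.1%), beside 26.3% of all genes.

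Cox6b2 encodes the form of subunit 6B of cytochrome c oxidase known from testis, a small subunit on the cytochrome c side of the enzyme. It had 10.6, 21.8 and 23.7 CPM in the URE het Tet2 KO libraries and 10.96 and 10.51 CPM in the URE het Tet2 het libraries. In the 12 Normal libraries it had 2.68 CPM at the lowest, 4.72 at the median and 7.21 at the highest. Each AML library thus lay above each Normal library, also within libraries 8 to 17 and within libraries 1 to 7. Its log2 fold was 1.64 ± 0.19 (SE, adjusted p = 0.000668), or 3.11-fold. It was the sole member of the 79 whose AML and Normal libraries did not overlap, beside 0.827% of all genes tested that did not overlap on the higher side and 0.692% on the lower side. The call held in all 25 alternatives, with adjusted p between 6.2e-11 and 0.0034.

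Cox6b1, the common form of the same subunit, was not called. It averaged 34.5 ± 13.04 CPM in AML (SD, n = 5) and 32.9 ± 9.50 CPM in Normal (n = 12), a log2 fold of -0.06 ± 0.22 with adjusted p = 0.902. The fold weights the genotypes equally and the means weight the libraries equally, so their signs can differ. Cox6b2 made up 27.1%, 29.6% and 34.4% of the counts of the pair in the URE het Tet2 KO libraries and 32.5% and 30.0% in the URE het Tet2 het libraries. In the Normal libraries its part ran from 8.47% in WT replicate 2 to 19.0% in URE het replicate 1. All 5 AML libraries thus lay above all 12 Normal ones in this measure too. URE het Tet2 KO replicates 2 and 3, which had the most Cox6b2, also had the most Cox6b1 of the AML libraries, 51.7 and 45.1 CPM. Both genes lie on chromosome 7 in GRCm38, Cox6b2 at 4751792 to 4753094 and Cox6b1 at 30616861 to 30626151, both on the minus strand, and neither overlaps another annotated gene.

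The 120 bases before the start of each gene are printed because Cox6b2 was called and its common partner Cox6b1 was not, and Cox6a1 is added as the highest complex IV member per kb. They come from RefSeq (GRCm38.p6, minus strand in all 3). Capitals mark exact matches, on either strand, of the nuclear respiratory factor 1 (NRF1) palindrome, shown by the first capitals of the Cox6a1 line, and of the ETS motif CCGGAAG, which fits GABP, both known from promoters of respiratory genes.
Cox6b2, chr7:4753095-4753214: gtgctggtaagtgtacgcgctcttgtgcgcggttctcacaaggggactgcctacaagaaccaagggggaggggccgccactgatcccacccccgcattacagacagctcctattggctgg
Cox6b1, chr7:30626115-30626234: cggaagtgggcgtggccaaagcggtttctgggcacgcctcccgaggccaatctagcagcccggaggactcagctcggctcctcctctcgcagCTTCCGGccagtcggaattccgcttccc
Cox6a1, chr5:115348959-115349078: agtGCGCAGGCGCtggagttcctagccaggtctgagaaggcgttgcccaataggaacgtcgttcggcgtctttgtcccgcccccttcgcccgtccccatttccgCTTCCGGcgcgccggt
The Cox6b2 window holds neither run of letters. The Cox6b1 window, whose RefSeq start lies 37 bases from that of GENCODE, holds the ETS run. The Cox6a1 window holds both. Windows of the same length for Cox5a, Cox7a2 and Atp5b, not printed, also hold neither, and that of Ndufs3 holds the ETS run. An empty window is thus not particular to Cox6b2. In the longer RefSeq windows of 300 bases, the NRF1 motif occurred in 17 of the 68 members with an entry (25%), beside 10.8% of the 10933 tested genes with an entry. CCGGAAG occurred in 16 of 68 (23.5%), beside 19.2%. ATGGCGG, a YY1 motif, occurred in 10 of 68 (14.7%), beside 8.85%, and TATAAA in 7 of 68 (10.3%), beside 9.12%. A match is a run of letters, not a measured binding site.

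Cox5a (chromosome 9, 57521274 to 57532426, plus strand), a subunit on the matrix side of cytochrome c oxidase, fell in AML. It had 68.3, 76.3 and 50.9 CPM in the URE het Tet2 KO libraries and 44.8 and 34.1 CPM in the URE het Tet2 het libraries, against 54.1 at the lowest, 80.8 at the median and 92.3 at the highest in Normal. URE het Tet2 KO replicate 3 and both URE het Tet2 het libraries lay below all Normal ones, and the other AML libraries lay among them. Its log2 fold was -0.64 ± 0.15 with edgeR adjusted p = 0.0131, and it passed in all 25 alternatives (0.000484 to 0.0353). A predicted gene, Gm26631, overlaps Cox5a on the other strand; since the strand setting of the counts was not given, reads of the 2 cannot be told apart.

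Cox6a2 (chromosome 7, 128205435 to 128206387, minus strand), the heart and muscle form of subunit 6A, was near the limit of detection. It had 0 counts in URE het Tet2 KO replicates 1 and 2, 3 counts in replicate 3, and 0 and 16 counts in the URE het Tet2 het libraries, against 6 to 39 counts in each of the 12 Normal libraries. Its log2 fold was -2.68 ± 0.73 with adjusted p = 0.0297, and the call was lost in 4 of 25 alternatives, for example to 0.0919 with limma voom and 0.0784 without URE het Tet2 het replicate 1. The second library of that genotype holds 16 of the 19 AML counts; leaving it out gave a log2 fold of -5.42 (edgeR adjusted p = 0.003). Pooled over libraries it made up 0.150% of the counts of Cox6a2 and Cox6a1 in AML and 0.704% in Normal. Cox6a1 itself, with a log2 fold of -0.09 ± 0.25, was not called. Itgad overlaps Cox6a2 on the other strand.

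Other isoform pairs showed no call. Cox7a1, the heart and muscle form of subunit 7A, had 1.06 ± 0.54 CPM in AML and 0.664 ± 0.39 CPM in Normal (log2 fold 0.75 ± 0.36, adjusted p = 0.198), and made up 1.91% of the counts of Cox7a1 and Cox7a2 in AML against 0.979% in Normal. Cox8b took 0.334% of the counts of its pair with Cox8a in AML and 0.208% in Normal. Cox4i2 and Ndufa4l2, both known from hypoxic cells, stayed under 0.08% of their pairs with Cox4i1 and Ndufa4 in both groups. The common forms Cox4i1, Cox7a2, Cox7b and Cox8a had log2 folds of -0.01, -0.36, 0.08 and 0.12, none called.

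In the complexes with no call, the member with the smallest p was Ndufa4 among those named for complex I (log2 fold -0.59 ± 0.21, adjusted p = 0.0809). It was Sdhc, a membrane anchor, in complex II (-0.26 ± 0.12, adjusted p = 0.172) and Uqcrh, the hinge subunit, in complex III (0.17 ± 0.13, adjusted p = 0.45). In complex V it was Atp5g3, a gene for the c subunit of the membrane ring (-0.78 ± 0.25, adjusted p = 0.0537). Atp5g3 had 50.3, 43.8 and 35.3 CPM in URE het Tet2 KO and 21.01 and 49.96 CPM in URE het Tet2 het. In Normal it ran from 44.5 through a median of 68.1 to 98.8 CPM, so that 3 AML libraries lay below all Normal ones. By title range, Normal libraries had 62.5 to 98.8 CPM in 8 to 17 and 44.5 to 54.6 CPM in 1 to 7. URE het Tet2 het replicate 2, of the later range, thus also lay below all Normal libraries of its range. URE het Tet2 KO replicate 1, of the earlier range, lay among those of its own.

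**Figure D2:**
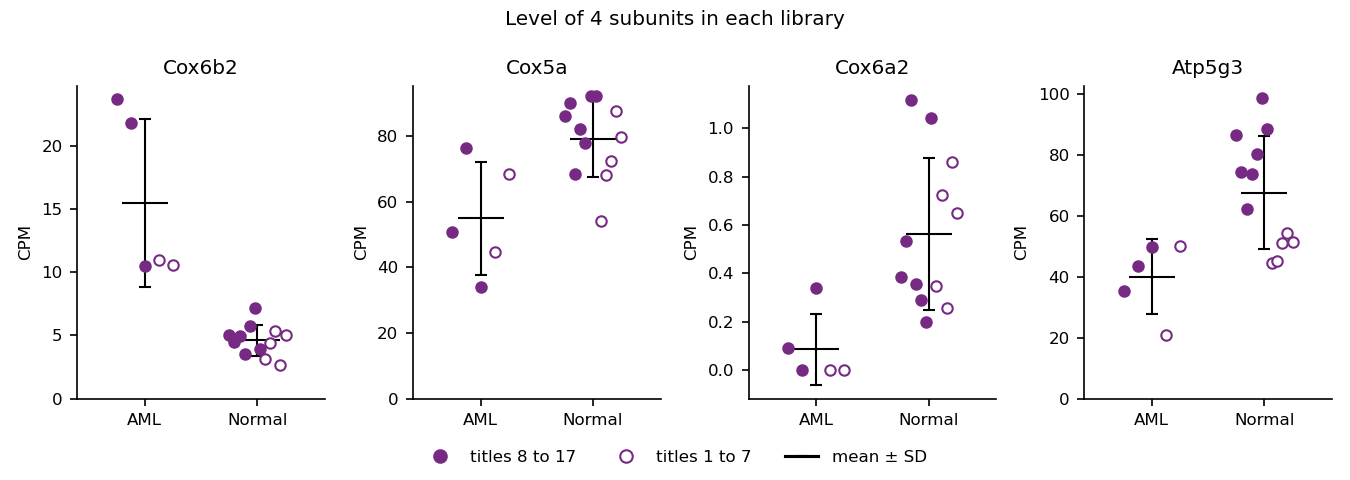
CPM of Cox6b2, Cox5a, Cox6a2 and Atp5g3 (y axes, each with its own scale) in the 5 AML and 12 Normal libraries. Filled points are libraries titled 8 to 17, open points those titled 1 to 7, and bars give mean ± SD. The AML points of Cox6b2, 10.5 to 23.7 CPM, lie above all Normal points, 2.68 to 7.21 CPM, and the other 3 genes overlap between the groups.

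The number of members called in AML grew where the title ranges were taken into account. With the range as a term in the fit, 2 members were higher and 6 lower, beside 18.4% of all genes called; besides the 3 above these were Ndufa4, Ndufa1, Atp5g3 and Atp5j, lower, and Atp5s, higher. Within libraries 8 to 17 alone, 2 were higher and 8 lower, while all genes called came to 20.9% of those tested. Atp5j, coupling factor 6 of the peripheral stalk, had a log2 fold of -0.36 ± 0.12 over all libraries (adjusted p = 0.0614) and -0.52 ± 0.11 within libraries 8 to 17 (0.0145). Gabpa overlaps Atp5j on the other strand. Atp5s had 13.4 CPM in URE het Tet2 het replicate 2, but 3.09 to 6.90 CPM in the other AML libraries. Normal libraries had 2.23 to 7.29 CPM, so only that AML library lay above them.

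Within AML, the 2 compound genotypes lay at different levels. Set against the Normal mean of each gene, the median member stood at 95.2%, 133% and 126% in URE het Tet2 KO replicates 1, 2 and 3. It stood at 71.8% and 69.8% in URE het Tet2 het replicates 1 and 2. In these URE het Tet2 het libraries 38 and 40 of 79 members lay below all 12 Normal libraries, and 7 and 4 above. In URE het Tet2 KO replicates 1, 2 and 3, 11, 37 and 29 members lay above all of them, and 6, 2 and 3 below. The share of all genes outside the Normal libraries was not counted for single libraries, so these counts have no background beside them. The percentages and counts pool Normal libraries of both title ranges, which differed in level. Within its own range, each URE het Tet2 KO library had a higher mean log2 level than every Normal library. Replicate 1 stood at 4.995, against at most 4.929 in Normal libraries 1 to 7. Replicates 2 and 3 stood at 5.45 and 5.386, against at most 5.381 in Normal libraries 8 to 17. With DESeq2 size factors replicate 3 no longer led, at 5.3775 against 5.4055 in URE het replicate 2. Taken by complex, the order also failed in II and V for replicates 1 and 3. These differences were not tested. In bulk RNA, a change in the make-up of the cells and a change in RNA per cell cannot be told apart.

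Set against each other, URE het Tet2 KO was above URE het Tet2 het in 74 of 79 members, with a median log2 fold of 0.67, beside -0.09 over all genes, of which 44.2% were positive. In 48 members the libraries of the 2 groups did not overlap, all on the higher side, beside 7.34% of all genes higher and 9.68% lower. Still, edgeR called 0 members at an adjusted p under 0.05 (0.01% of all genes); 43 of 79 had an unadjusted p under 0.05, beside 11.7% of all genes, and DESeq2 called 7, all higher, beside 1.68% of all genes. By complex the median log2 fold was 0.61 in I, 0.56 in II, 0.71 in III, 0.81 in IV and 0.77 in V, positive in each complex. Without URE het Tet2 het replicate 1, edgeR called 6 members, all higher (Sdhc, Sdhd, Atp5g1, Ndufb9, Atp5j and Cox7a2l), beside 4.79% of all genes. That fit sets 3 libraries against 1, which is assumed to vary like the other groups.

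The member with the smallest p there was Atp5j. It averaged 163 ± 1.19 CPM in URE het Tet2 KO (SD, n = 3) and 77.6 ± 5.80 CPM in URE het Tet2 het (n = 2), a log2 fold of 1.07 ± 0.20 with adjusted p = 0.139 (DESeq2 log2 fold 1.10, adjusted p = 6.0e-05). Ndufa11, an accessory subunit of the membrane arm, averaged 16.1 ± 1.41 and 8.36 ± 0.33 CPM (0.94 ± 0.21, adjusted p = 0.167), and Sdhc 36.9 ± 3.95 and 20.1 ± 1.72 CPM (0.88 ± 0.20, adjusted p = 0.17). Uqcrfs1, the Rieske iron-sulfur protein of complex III, averaged 59.5 ± 10.9 and 26.1 ± 4.69 CPM (1.19 ± 0.35, adjusted p = 0.256). These genes were chosen after their values were seen. Subunits encoded by mitochondrial DNA ran the same way without a call, 13 of 13 positive with a median of 0.50. So did 15 of 16 genes of the tricarboxylic acid cycle (0.44) and 61 of 78 of the mitochondrial ribosome (0.34). Not all mitochondrial lists did: 26 of 44 assembly factors (0.09) and 7 of 14 regulators of mitochondrial biogenesis (-0.05) were positive. Of 15 electron carriers and remaining subunits outside the symbol rule 11 were positive (0.29), and of 20 genes of glycolysis 7 (-0.22). The marker lists again had no call by edgeR. Positive were 11 of 12 proliferation genes (0.22), 1 of 8 markers of mast cells, basophils and eosinophils (-1.85) and 2 of 8 lymphoid markers (-1.39). So were 4 of 9 markers of mature neutrophils (-0.01), 4 of 9 erythroid (-0.46) and 3 of 8 progenitor markers (-0.22). Stromal and endothelial markers were positive in 4 of 7 (0.89). URE het Tet2 het replicate 2 had a TMM factor of 1.25, against 0.881 to 1.08 in all other libraries. The part of these in the difference was not tested.

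**Figure D3:**
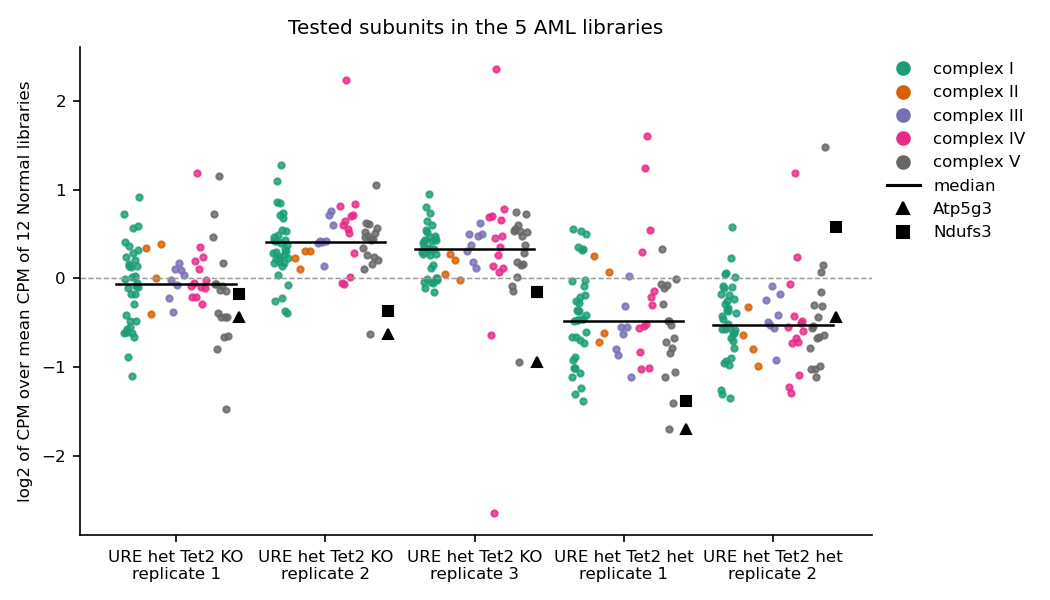
Each of the 79 tested subunits in each AML library (x axis), as log2 of its CPM over its mean CPM in the 12 Normal libraries (y axis), coloured by complex; values of 0 counts (Cox6a2 in 3 libraries) are not drawn. Black bars are medians, triangles mark Atp5g3 and squares Ndufs3. The medians of URE het Tet2 KO replicates 2 and 3 lie above 0 and those of both URE het Tet2 het libraries below 0.

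The compound mutants set against their single Tet2 mutants differed in direction over the chain. URE het Tet2 KO against Tet2 KO had a median of 0.22, with 67 of 79 members positive beside 52.6% of all genes. It had 1 call, Cox6b2, higher (2.01 ± 0.32, adjusted p = 0.0281). Over all genes 0.977% were called, 0.396% higher and 0.581% lower. Cox6b2 averaged 18.7 ± 7.07 CPM in URE het Tet2 KO and 4.64 ± 0.34 CPM in Tet2 KO (SD, n = 3 each), with no overlap. In 9 members the libraries of the 2 groups did not overlap, 7 higher and 2 lower, beside 8.35% and 9.59% of all genes. The call was lost in 6 of 14 alternatives, which included the fit of the 2 groups alone and the omission of any Tet2 KO library, with adjusted p up to 0.0941.

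URE het Tet2 het against Tet2 het had a median of -0.28 and 68 of 79 members negative, beside 53.4% of all genes positive. In 2 members the URE het Tet2 het libraries lay above all Tet2 het libraries and in 24 below, beside 12.8% and 12.3% of all genes. No member was called by edgeR (0.0% of all genes), 13 had an unadjusted p under 0.05 (16.5%, beside 13.3% of all genes), and DESeq2 called 3, beside 3% of all genes. Cox6b2 was among the 11 members with a positive log2 fold there: it averaged 10.7 ± 0.32 CPM in the 2 URE het Tet2 het libraries and 3.89 ± 0.96 CPM in Tet2 het (n = 3), a log2 fold of 1.46 ± 0.34 with adjusted p = 0.131. With the title range as a term it passed (adjusted p = 0.0442), as did Atp5s, higher, and Atp5j, lower, beside 0.727% of all genes. Atp5s had 4.78 and 13.4 CPM in URE het Tet2 het replicates 1 and 2, against 2.23 to 5.21 CPM in Tet2 het. Atp5j averaged 77.6 ± 5.80 and 138 ± 11.7 CPM in these groups (-0.83 ± 0.20, adjusted p = 0.131). The difference between the 2 compound against single comparisons was not tested.

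In the single mutants no member passed against WT. URE het against WT had 0 calls by edgeR and 0 by DESeq2, with a median of 0.25 and 1 member at an unadjusted p under 0.05, beside 3.77% of all genes (0.0% of all genes called). Tet2 het against WT had 0 calls by both tools, a median of -0.03 and 0 members at an unadjusted p under 0.05, beside 2.93% of all genes; 43.0% of members and 50.5% of all genes were positive. Tet2 KO against WT likewise had 0 calls by both, a median of 0.12 and 0 such members, beside 2.57% of all genes; 69.6% of members and 49.7% of all genes were positive. These 3 comparisons share the WT libraries, of which 2 of 3 are titled 1 to 7, against 1 of 3 in each mutant group; with the range as a term the median of URE het against WT was 0.11. Cox6b2 averaged 6.12 ± 0.96 CPM in URE het, 3.89 ± 0.96 CPM in Tet2 het and 4.64 ± 0.34 CPM in Tet2 KO, against 3.87 ± 1.16 CPM in WT (SD, n = 3 each), with none of the 3 called.

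The largest set of differences among the subunits lay between the title ranges of the Normal libraries. Of 79 members, 49 were higher and 7 were lower in Normal libraries 8 to 17 than in Normal libraries 1 to 7, with genotype in the fit (edgeR, 18282 genes tested). Over all genes 17.1% were higher and 19.3% lower. An unadjusted p under 0.05 was reached by 61 members, beside 45.8% of all genes. The median log2 fold of the members was 0.41, beside 0.03 over all genes. In 38 members all 7 later libraries lay above all 5 earlier ones and in 4 below, beside 8.12% and 9.81% of all genes. Each of the 49 higher members had a later mean above the earlier one in all 4 Normal genotypes. Of the 7 lower members, all had a later mean below the earlier one in WT, Tet2 het and Tet2 KO, and 5 in URE het. These members were called in the same 12 libraries, so a shared direction is largely given by that choice. Leaving out each of the 12 libraries in turn, 40 of the 49 and 4 of the 7 passed every time.

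The higher members came from all 5 complexes. In complex I 20 of 36 were higher and 4 lower, and in complex II 1 and 0 of 4. Complex III had 6 and 0 of 8, complex IV 9 and 1 of 14, and complex V 13 and 2 of 17. Beside these, 17.1% of all genes were higher and 19.3% lower. The 4 genes of complex II are too few to be read against these shares. Of the 7 nuclear subunits of the catalytic core of complex I, which carry the iron-sulfur clusters and the NADH and quinone sites, Ndufs3 and Ndufv1 were higher and Ndufs8 lower, with a median of 0.11. Of the 29 others, 18 were higher and 3 lower, with a median of 0.45. The 7 core genes are also too few to be read against the shares of all genes. The division by role was made after the values were seen, and the difference between the 2 sets was not tested.

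Ndufc1, an accessory subunit of the membrane arm, had the smallest p of complex I. It ran from 18.5 through a median of 22.4 to 29.0 CPM in the 7 later Normal libraries. In the 5 earlier ones it had 9.48, 10.8, 11.6, 10.2 and 7.74 CPM. The ranges do not overlap, and the log2 fold was 1.23 ± 0.10 (adjusted p = 3.0e-06). Ndufa5, an accessory subunit of the peripheral arm, ran from 10.4 to 13.8 CPM in the later and from 4.81 to 6.49 CPM in the earlier libraries (1.14 ± 0.13).

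Ndufa13 went the other way. This accessory subunit, also known as GRIM-19, ran from 28.8 through 31.6 to 42.1 CPM in the later Normal libraries, against 70.7, 71.6, 60.3, 93.1 and 84.5 CPM in the earlier ones. Its log2 fold was -1.21 ± 0.14 (adjusted p = 2.2e-05), the lowest of the 79. Ndufs8, a core iron-sulfur subunit, averaged 20.8 ± 2.39 CPM in the later and 36.9 ± 6.31 CPM in the earlier libraries (-0.78 ± 0.11). Yjefn3 on the same strand and Tssk6 on the other overlap Ndufa13, and nothing overlaps Ndufs8.

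In complex II Sdhb, the iron-sulfur subunit of succinate dehydrogenase, was the one call. It averaged 28.1 ± 2.36 CPM in the later and 21.8 ± 2.22 CPM in the earlier Normal libraries (0.32 ± 0.10, adjusted p = 0.019), and the call was lost without URE het replicate 1, Tet2 KO replicate 1 or WT replicate 3 (0.0755 at most). In complex III 6 of 8 rose, with Uqcrq, Uqcrb and Uqcrfs1 in the lead. Uqcrq, a small subunit near the quinone site, ran from 27.6 through 33.7 to 38.7 CPM in the later libraries, against 15.5, 21.8, 19.5, 14.9 and 15.8 CPM in the earlier ones (0.95 ± 0.11). Uqcrfs1, the Rieske protein, averaged 51.2 ± 7.83 and 31.1 ± 3.88 CPM (0.71 ± 0.10), and Uqcrb 25.9 ± 1.82 and 15.1 ± 4.14 CPM (0.91 ± 0.13).

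In complex IV 9 of 14 rose, all of them forms found in most tissues. Cox7a2, common form of subunit 7A, ran from 64.7 through 77.9 to 96.1 CPM in the later libraries, against 36.4, 47.2, 44.5, 40.8 and 39.9 CPM in the earlier ones (0.87 ± 0.09, adjusted p = 1.9e-05). Cox5b, which binds zinc, averaged 43.7 ± 5.91 and 24.5 ± 2.69 CPM (0.82 ± 0.09), and Cox6c 77.6 ± 9.90 and 49.99 ± 4.28 CPM (0.63 ± 0.08). Cox6a1 was the single lower member: it averaged 65.0 ± 9.04 CPM in the later and 107 ± 5.13 CPM in the earlier libraries, with no overlap (-0.74 ± 0.10). Cox6b2 was not called here (0.20 ± 0.19, adjusted p = 0.431).

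In complex V the calls are given by part, a division also made after the values were seen and not tested. The 4 small membrane subunits Atp5l, Atp5k, Atp5j2 and Atp5mpl were all higher, with a median of 1.09, and so were the 4 genes of the peripheral stalk (Atp5f1, Atp5h, Atp5j and Atp5o), with a median of 0.57. In the F1 head and central stalk, Atp5c1 (gamma) and Atp5e (epsilon) were higher, Atp5b (beta) lower, and Atp5a1 (alpha) and Atp5d (delta) not called. Atp5e ran from 40.0 through 43.9 to 58.9 CPM in the later libraries, against 22.9, 24.9, 22.6, 19.97 and 22.7 CPM in the earlier ones (1.06 ± 0.09, adjusted p = 5.4e-06, the smallest of complex V). Atp5b averaged 456 ± 56.1 CPM in the later and 710 ± 112 CPM in the earlier libraries (-0.58 ± 0.10). The 3 genes that encode the same mature c subunit went both ways, with Atp5g2 at 0.55 and Atp5g3 at 0.75 higher and Atp5g1 at -0.46 lower.

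**Figure D4:**
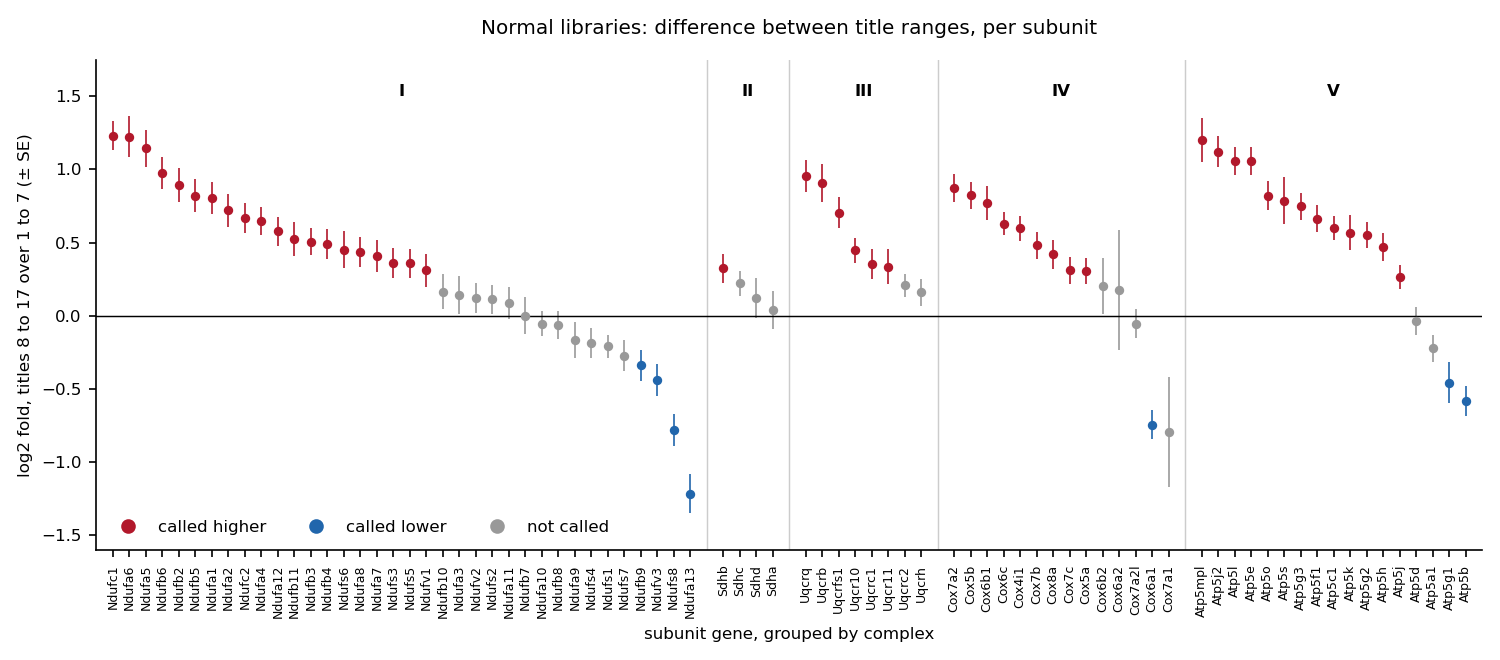
Log2 fold of each of the 79 tested subunits between Normal libraries titled 8 to 17 (n = 7) and Normal libraries titled 1 to 7 (n = 5), with genotype in the fit (y axis); bars are SE, and subunits are sorted within complexes I to V (x axis). Of the points, 49 are called higher (red), 7 lower (blue) and 23 not called (grey); they run from Ndufc1 at 1.23 to Ndufa13 at -1.21.

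Short genes were more often higher in the later Normal libraries. Among all genes tested, 23.9% of those with under 1 kb of exon sequence and 14.4% of those over 4 kb were called higher. Among the members it was 16 of 19 under 1 kb (84.2%), 19 of 31 from 1 to 2 kb, 9 of 19 from 2 to 4 kb and 5 of 10 over 4 kb. The members thus stood above all genes in each length class, and the part of gene length in the difference was not tested. Other mitochondrial lists moved in the same comparison: 43 of 78 genes of the mitochondrial ribosome were higher and 4 lower, 16 and 4 of 44 assembly factors, and 7 and 0 of 13 subunits encoded by mitochondrial DNA, led by mt-Nd3 (1.57) and mt-Co3 (1.08). The electron carrier Cycs averaged 130 CPM in the later and 66.0 CPM in the earlier libraries (1.04). The tricarboxylic acid cycle had 5 higher and 2 lower of 16. For all these lists, the shares over all genes were 17.1% higher and 19.3% lower.

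Glycolysis ran opposite to the chain, with 1 higher and 12 lower of 20 genes. For all lists of this paragraph too, the shares over all genes were 17.1% higher and 19.3% lower. The shorter lists hold too few genes to be read against these shares. Pkm averaged 191 CPM in the later and 352 CPM in the earlier Normal libraries (-0.88), and the glucose transporter Slc2a3 76.9 and 212.5 CPM (-1.43). Of the regulators of mitochondrial biogenesis Pprc1 (0.71), Tfam (0.50) and Yy1 (0.28) were higher and Polg (-0.37) lower, of 13 tested. Some marker lists also had calls in this comparison. Of 12 proliferation genes 5 were lower and none higher, with summed levels of 3292 to 4806 CPM in the later and 3576 to 6358 CPM in the earlier libraries. Of 9 genes of mature neutrophils 5 were lower (26410 to 93520 and 29440 to 60200 CPM), none at 0 in any library, and of 8 progenitor genes Kit and Cd34 were higher and Ptprc and Spi1 lower. Lymphoid (7 tested), erythroid (9) and mast cell, basophil and eosinophil (8) markers had 0 calls in edgeR, and 1 of 5 stromal and endothelial markers was lower. The part of the cell make-up, of the mitochondrial RNA share and of the library title in these differences was not tested.

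In the AML libraries the same division had 0 calls among 78 members by edgeR (0.0% of all genes); 14 members had an unadjusted p under 0.05, beside 9.5% of all genes, and DESeq2 also called 0, beside 3.01% of all genes. The median log2 fold was 0.25. Of the 49 members higher in Normal libraries 8 to 17, 45 had a later mean above the earlier one in URE het Tet2 KO and 31 in URE het Tet2 het, while all 7 lower members were lower in both. The test of the difference between AML and Normal in this division called 0 members by edgeR and 0 by DESeq2 (0.175% of all genes called, 0.15% higher and 0.0251% lower), with 9 at an unadjusted p under 0.05, beside 12.8% of all genes. Of the members 26 were positive, beside 50.2% of all genes. Without URE het Tet2 KO replicate 1 it called 19 (20.4% of all genes), of which 18 were lower. The AML side then rests on 1 URE het Tet2 het library in each range, which are assumed to vary like the other groups.

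The members between 60 and 160 Mb of chromosome 2 were Atp5g3 at 73908447 to 73911326 and Ndufs3 at 90894634 to 90904827, and Cox4i2, which had too few counts to be tested. Spi1 also lies on chromosome 2. Against the median of the members on other chromosomes in the same library, each set to its Normal mean, Atp5g3 stood at 77.9%, 48.7% and 41.4% in URE het Tet2 KO replicates 1, 2 and 3 and at 43.1% and 106% in URE het Tet2 het replicates 1 and 2. Ndufs3, a core subunit of complex I, stood at 92.7%, 58.5% and 71.6% and at 53.4% and 215% in the same libraries. In Normal libraries, set to the Normal mean alone, Atp5g3 ran from 65.7% to 146% and Ndufs3 from 68.9% to 117%.

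In this measure the same 3 AML libraries were thus lowest for both genes, and URE het Tet2 het replicate 2 highest. The Normal mean pools both title ranges, however. Atp5g3 averaged 80.7 CPM in Normal libraries 8 to 17 and 49.4 CPM in 1 to 7, and Ndufs3 19.0 and 14.6 CPM. Within its own title range, Atp5g3 of URE het Tet2 het replicate 2 lay below all Normal libraries. Members of chromosome 2 outside that interval, Ndufa8, Atp5c1 and Atp5e, stood at 60.6% to 133% over the 5 libraries. Ndufs3 averaged 15.2 ± 6.82 CPM in AML and 17.2 ± 2.68 CPM in Normal (-0.16 ± 0.24, adjusted p = 0.733). Without URE het Tet2 het replicate 2 its log2 fold was -0.81 (adjusted p = 0.0068) and without URE het Tet2 het replicate 1 it was 0.17, so that 1 library decides its direction. Atp5g3 without URE het Tet2 het replicate 2 had a log2 fold of -1.17 and passed (adjusted p = 0.009). Kbtbd4 overlaps Ndufs3 on the other strand. Copy number was not measured.

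Genes of related lists were also read in AML against Normal, where 6.94% of all genes were called higher and 4.02% lower. The shorter lists hold too few genes to be read against these shares. Of 44 assembly factors, 16 genes of the tricarboxylic acid cycle and 13 subunits encoded by mitochondrial DNA, edgeR called none at an adjusted p under 0.05. Of 78 genes of the mitochondrial ribosome 1 was higher and 1 lower. Coq9, a protein of ubiquinone synthesis, was higher (22.02 and 13.6 CPM in AML and Normal, 0.71, adjusted p = 0.0142). Among 14 regulators of biogenesis, the coactivators Ppargc1a (0.881 and 0.216 CPM, 1.89) and Ppargc1b (6.12 and 2.76 CPM, 1.12, adjusted p = 0.00356) were higher, and Gabpb1, a subunit of GABP, was lower (25.3 and 42.4 CPM, -0.73, adjusted p = 0.0129). In glycolysis Gpi1 (0.84) and Pfkp (0.93) were higher and Ldhb (-1.69) lower, of 20.

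Marker lists of other cells had calls in AML against Normal as well, beside 6.94% of all genes higher and 4.02% lower. These lists are too short to be read against those shares. Of 8 markers of mast cells, basophils and eosinophils 5 were lower (summed levels 19.6 to 101 CPM in AML and 102 to 276 CPM in Normal, with Gata1 at 0 in 3 AML libraries). Of 9 markers of mature neutrophils 5 were lower (11730 to 38710 and 26410 to 93520 CPM, none at 0). Of 12 proliferation genes 3 were lower (1748 to 5383 and 3292 to 6358 CPM), of 8 tested lymphoid markers 3 were lower (0.516 to 7.80 and 2.59 to 14.95 CPM, Cd8a and Ms4a1 at 0 in 4 of 5 AML libraries), and of 7 stromal and endothelial markers 1 was higher and 2 lower (19.03 to 143 and 37.4 to 61.6 CPM, Cdh5 at 0 in all 5 AML libraries). Erythroid markers (1.97 to 18.6 and 2.99 to 62.2 CPM) and progenitor markers had 0 calls of 9 and 8 by edgeR. Their part in the results for Cox6b2, Cox5a and Cox6a2 was not tested.

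The members varied together in part. Over the 17 libraries, which differ in depth and title range, the median Pearson r between 2 tested members was 0.51 over 3081 pairs, and 2453 pairs were above 0. Among the genes outside the rule whose log2 level was most like the mean of the members over these libraries were the processed pseudogenes Gm10231 (r = 0.949), Gm15796 (0.945) and Gm10175 (0.944), and Spg21 (0.942). Of the 84 members 35 overlap another annotated gene, 28 of them on the other strand. Many respiratory chain genes have processed pseudogene copies, and how reads with several matches were counted was not given, so single members may have gained or lost reads to such copies.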

How the data were processed

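RNA-seq libraries of 17 samples were analysed from 1 deposited table of whole-number read counts per gene, made by the authors; STAR and GRCm38 are named, with no role given, per the submitters' processing notes. The aligner's version, the annotation, the counting tool, its strand setting and its handling of reads with several matches are not given in the sources used here. Of 96004 rows in the table, 48361 with enh in their names were left out and 47643 gene rows kept; 47224 of these matched GENCODE vM21 by identifier without version.

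Counts were tested in R 4.3.3 with edgeR 4.0.16 (TMM scaling, filterByExpr with a minimum count of 10 and a minimum total of 15, robust quasi-likelihood F test). One mean was fitted per genotype over 17 libraries, or genotype and title range for the ranges, with Benjamini-Hochberg adjustment of p over all genes tested and a threshold of 0.05. The fold of AML against Normal weights genotypes equally. SE was taken from the log2 fold and its F value. CPM was computed from the counts with the TMM library sizes, log2 levels with a pseudocount of 0.5, and values per kb with merged exon length. Depth was 21.1 to 38.3 M gene counts per library; the floor of 3 counts covers counting error only.

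Genes were named by these rules: up to 3 called members per complex with the smallest p, members between 60 and 160 Mb of chromosome 2, tissue-restricted isoforms and their partners, the highest member per kb and, where none passed in AML against Normal, the smallest p. Other named genes were chosen after their values were seen. Some genes that these rules or lists name are not reported here. The members and lists were chosen with earlier results of these data known. Alternatives were DESeq2 1.42.0, its size factors, limma 3.58.1 voom with quality weights, no low-count filter, the compared groups alone, the title range as a term, title numbers 8 to 17 alone, each library left out and, chosen after seeing the data, no mitochondrial genes. On simulated counts for AML against Normal (19951 genes), 51% of 100 genes changed by a log2 fold of 1 and 95% of 100 changed by 2 were recovered. For the Normal title ranges (18282 genes) it was 91% and 100%. Changed genes were drawn from better expressed genes only, so these shares do not cover low members such as Cox6a2 and Cox7a1. The simulated means held no other difference between genotypes or title ranges.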

Additional observations from a re-analysis of the deposited data

Results flagged for a closer look

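In 111 combinations of a group of 4 to 10 libraries and a measure, 1 library stood far from the rest of its group in 4; chance alone gives about 1 in 20. Ndufa1, the highest complex I member per kb, had 42.4 CPM in URE het replicate 2, while the other Normal libraries titled 8 to 17 had 27.1 to 31.8 CPM. Cox6a2 had 0.340 CPM in URE het Tet2 het replicate 2, while the other AML libraries had 0 to 0.0907 CPM. Cox7a1 had 2.02 CPM in URE het Tet2 het replicate 1, while the other AML libraries had 0.696 to 0.946 CPM. Cox7a1 also had 1.79 CPM in Tet2 het replicate 1, while the other Normal libraries titled 1 to 7 had 0.462 to 0.772 CPM.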

How the results depend on the processing

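Of 159 recomputed counts of called members, 136 stayed within 1.5 times of those reported and 23 moved; of 448 recomputed single members 418 kept their direction and side of the threshold, 13 lost the call, 15 gained one and 2 turned. For AML against Normal (3 called) the count was 6 with DESeq2, 8 with the title range as a term, 10 within titles 8 to 17, 5 without mitochondrial genes and 2 to 6 with 1 library left out. For URE het Tet2 KO against Tet2 KO (1) it was 2 with DESeq2, 8 with limma voom, 0 with the compared groups alone and 0 to 3 with 1 library left out. For URE het Tet2 het against Tet2 het (0) it was 3 with DESeq2, 3 with the range term and 0 to 2 with 1 library left out. For URE het Tet2 KO against URE het Tet2 het (0) it was 7 with DESeq2, 1 with the range term and 0 to 6 with 1 library left out. For the difference of the ranges between AML and Normal (0) it was 0 to 19, and 3 without either URE het Tet2 het library. For the Normal title ranges (56) it was 48 to 56. Ndufs3 in AML turned to 0.012 within titles 8 to 17 and to 0.17 without URE het Tet2 het replicate 1, and was -0.81 without URE het Tet2 het replicate 2. The causes of these moves were not tested. Where an omission leaves a group 1 library, it is assumed to vary like the other groups. No paired analysis was possible because the titles number the libraries 1 to 17 with no number shared between groups. With 2 or 3 libraries per genotype, many smaller changes may have been missed.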
